A study of Rattus norvegicus with 9 samples.

Results

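The 10 genes described here code for apolipoproteins, the protein part of the particles that carry lipid in plasma. They are Apoa1, Apoa2, Apoa4, Apoa5, Apob, Apoc1, Apoc2, Apoc3, Apoe and Apoh, taken by their gene names from a table of 32883 genes, and every one of them had enough reads to be tested in each comparison. The livers of 9 Sprague-Dawley males gave 1 mRNA library each, 3 rats to a group. Normal control rats (N1, N12 and N3) ate a normal diet without DEN. DEN model rats (M13, M17 and M24) received diethylnitrosamine (DEN), a liver carcinogen, at 0.01% by intraperitoneal injection once a week in a schedule of 16 weeks. PZH administration rats (G27, G28 and G42) received the same DEN and were also given PZH (Pien-Tze-Huang), a traditional Chinese medicine. Both DEN-treated groups therefore carried the carcinogen, and no group received PZH without it. Rats of the study were killed after a fast, at several time points and 2 PZH doses, and the dose and time point of these 9 rats are not given in the sources used here. The treatment tag in the labels reads PZH for the M rats as well, so the groups were taken from the letter in each rat's name. The ages of the rats are also not given there.

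Apolipoproteins are made mainly by hepatocytes and, for several of them, by the small intestine. Apob, a very large protein, is the scaffold of very low-density lipoprotein (VLDL), and 1 copy stays with each particle until the particle is taken up. The small exchangeable apolipoproteins move between particles: Apoa1 and Apoa2 build high-density lipoprotein (HDL), Apoe is the ligand by which remnants are taken up, and Apoc2, Apoc3 and Apoa5 set how fast lipoprotein lipase removes triglyceride. The genes lie largely in 2 clusters. In the coordinates of the authors' file, whose build is not given in the sources used here, Apoa1 (chr8:50525091-50526875), Apoc3 (chr8:50529318-50531498), Apoa4 (chr8:50537009-50539376) and Apoa5 (chr8:50559126-50561736) are neighbours on chromosome 8, and Apoc2 (chr1:80589023-80594136) and Apoe (chr1:80612895-80617057) are close to each other on chromosome 1. Apoa2 (chr13:89597138-89598802), Apob (chr6:33176778-33224997) and Apoh (chr10:96639924-96653938) lie alone. The line named Apoc1 lies on the unplaced scaffold KL568199.1 from position 10857 to 11406, and a second line described as apolipoprotein C1 is treated separately further on.

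Depth was 16115709 to 16412520 counts in normal control rats, 15259441 to 16641954 in DEN model rats and 14922973 to 27161496 in rats given PZH, with G27 the deepest library. A floor of 3 counts equalled at most 0.252 CPM, and each member had at least 54 counts in every rat. CPM is the count scaled to an equal library size with edgeR's TMM factors, which were 0.731 to 0.799 in normal control, 1.21 to 1.58 in DEN model and 0.863 to 0.941 in PZH administration rats. With library totals and no TMM factors, the median change over all tested genes shifted on the log2 scale by 0.87 between DEN model and normal control, by -0.67 between PZH administration and DEN model and by 0.23 between PZH administration and normal control. It also raised the share of called genes that were higher from 55.3% to 89.4% in the first of these comparisons. It lowered that share from 45.7% to 8.89% in the second and raised it from 78.0% to 90% in the third. Log2 fold changes of the members are therefore given relative to the TMM scaling, with the value under library totals where it changes a direction.

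**Figure D1:**
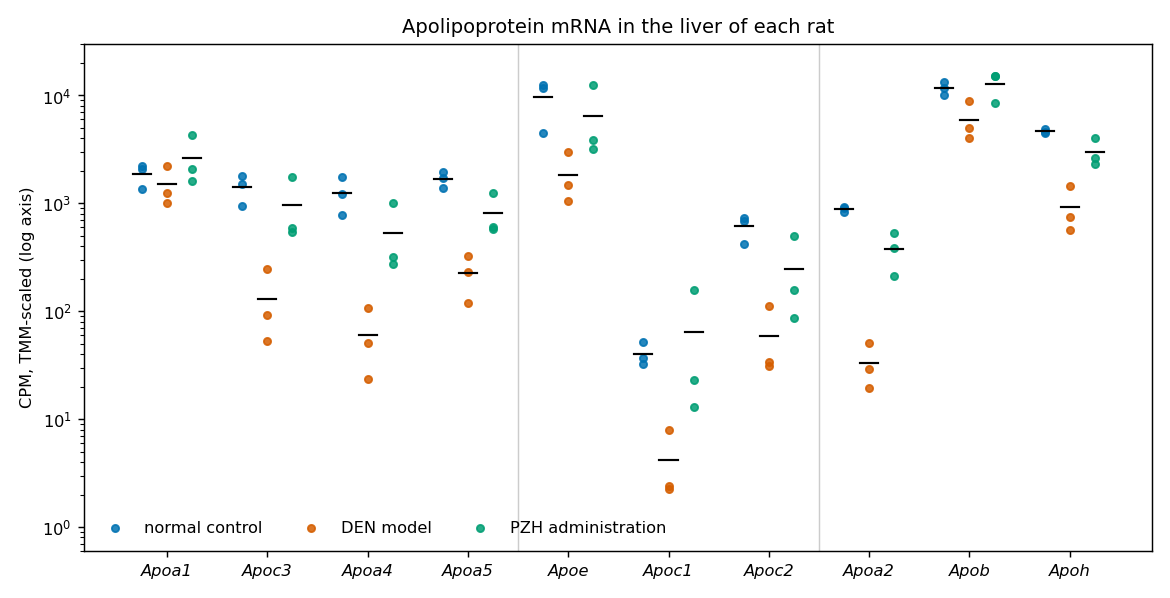
Level of each apolipoprotein gene in every rat, as CPM scaled with TMM factors on a log axis. Points are rats, coloured by group (3 rats each), and black lines are group means; grey lines separate the chromosome 8 cluster, the Apoe cluster with Apoc1, and the other members. The 3 DEN model rats lie below all 3 normal control rats in every member but Apoa1.

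Levels of different genes were compared as FPKM, the authors' values per length of transcript and depth of library. In normal liver the highest means were those of Apoe at 4880 ± 2398 FPKM (SD, n = 3) and Apoh at 2935 ± 214 FPKM. Their ranges overlapped, and in N3 Apoh (2722 FPKM) was above Apoe (2118 FPKM). Apoc3 (1701 ± 571), Apoa1 (1651 ± 459) and Apoa2 (1559 ± 165 FPKM) came next with overlapping ranges. Below them, and separate from Apoa2, were Apoc2 (744), Apoa4 (693), Apoa5 (665) and Apob (541 FPKM), each overlapping the next of these genes. The scaffold line of Apoc1 was lowest at 152 ± 41.9 FPKM. In the DEN model the order was different. Apoa1 stood first at 2318 ± 653 FPKM and above Apoe (1611 ± 664 FPKM) in all 3 rats, although the ranges overlapped between rats, and Apoa2 had gone from the fifth to the eighth place at 103 ± 34.7 FPKM. PZH administration rats had Apoe first again at 3721 ± 2761 FPKM and Apoa1 second at 2669 ± 1285 FPKM, with Apoe above Apoa1 in each of the 3 rats. Together the 10 genes took 2.63% ± 0.512 of all counts in normal control, 1.47% ± 0.472 in DEN model and 2.54% ± 0.376 in PZH administration rats. This share does not depend on TMM. The DEN model rats did not overlap either of the other groups (exact two-sided permutation test, p = 0.1 for each, the smallest that 3 rats against 3 can give, 0.15 after Benjamini-Hochberg adjustment over 3 tests), while PZH administration and normal control rats overlapped (exact p = 0.9). Apob alone held 0.803% to 0.972% of all counts in normal control rats and 0.636% to 1.08% in DEN model rats. In G27, G28 and G42 it held 0.729%, 1.40% and 1.425%. The summed share therefore leans on Apob and does not show how each member stood.

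The first comparison, of DEN model with normal control livers, shows how the apolipoprotein genes stand in the carcinogen-treated liver. Of the 10 genes, 8 fell, by between 5.03-fold for Apoh and 26.4-fold for Apoa2, and the other two, Apoa1 and Apob, did not pass the test. Of all 14255 genes tested, 20.5% were called lower by the same rule, which is a p under 0.05 from edgeR's quasi-likelihood test after Benjamini-Hochberg adjustment. At the thresholds the study used, a log2 fold change beyond 2 in size with a raw P under 0.001, 7 members were lower (all of the 8 but Apoe), against 3.49% of all genes. The groups did not overlap in 9 members, where 58.8% of all genes did not overlap. The median log2 fold change of the members was -3.07 (-2.29 under library totals), and that of all genes was 0.03 (0.89 under library totals). In bulk liver, fewer hepatocytes and less apolipoprotein mRNA in each hepatocyte cannot be told apart.

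Among the HDL proteins, Apoa1, which activates the enzyme that esterifies HDL cholesterol, had 2212, 2059 and 1370 CPM in N1, N12 and N3. Its DEN model values were 1257, 2236 and 1017 CPM in M13, M17 and M24. Rat M17 was above every normal control rat and the groups overlapped. The log2 fold change was -0.30 (SE 0.39, adjusted p = 0.55 in edgeR's quasi-likelihood test), and under library totals it had the opposite sign, 0.49 (adjusted p = 0.20). Apoa2, the second protein of HDL, gave 912, 915 and 824 CPM in the normal control rats. It gave 29.3, 50.5 and 19.6 CPM in M13, M17 and M24. Every DEN model rat was far below every normal control rat, and the log2 fold change of -4.72 (SE 0.40, adjusted p = 0.00014) was the most negative of the 10 genes. Apoa4, which is carried on HDL and on triglyceride-rich particles, stood at 1755, 1211 and 773 CPM in N1, N12 and N3. In M13, M17 and M24 it stood at 51.0, 107 and 23.4 CPM. The ranges were widely separate, with a log2 fold change of -4.35 (SE 0.60, adjusted p = 0.00087).

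Of the genes that regulate triglyceride clearance, Apoa5, which promotes the action of lipoprotein lipase, had 1940, 1715 and 1384 CPM in normal control rats. It had 230, 325 and 120 CPM in DEN model rats, a log2 fold change of -2.88 (SE 0.41, adjusted p = 0.00096). Apoc2, the cofactor that lipoprotein lipase needs, was measured at 683, 738 and 424 CPM in N1, N12 and N3. Its values in M13, M17 and M24 were 34.0, 112 and 31.2 CPM. Apoc3, which slows lipolysis and remnant uptake, was measured at 1787, 1510 and 953 CPM in the normal control rats. It reached 91.8, 248 and 52.9 CPM in M13, M17 and M24. In all of these genes M17 was the highest DEN model rat and still lay below the lowest normal control rat. The log2 fold changes were -3.36 for Apoc2 (SE 0.54, adjusted p = 0.0016) and -3.41 for Apoc3 (SE 0.59, adjusted p = 0.0023), so the activator, the cofactor and the inhibitor of lipolysis were all lower.

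Apob had 11610, 10050 and 13310 CPM in N1, N12 and N3, the highest mean CPM of the 10 genes. DEN model rats had 4945, 8919 and 4041 CPM. The groups did not overlap on this scale, but the log2 fold change of -0.95 (SE 0.47) missed the threshold (adjusted p = 0.13 in edgeR's quasi-likelihood test). Under library totals it was -0.14 (adjusted p = 0.73). Apoe, by which hepatocytes recognise remnants, stood at 12600, 11840 and 4507 CPM in the normal control rats, with N3 well below the others. It stood at 1471, 3016 and 1060 CPM in M13, M17 and M24, a log2 fold change of -2.36 (SE 0.59, adjusted p = 0.012). Without M13 the call of Apoe was lost (-2.22, adjusted p = 0.058), and over all 14 alternatives its adjusted p lay between 1.2e-06 and 0.058. Without M17 Apob was called lower (-1.37, adjusted p = 0.0094), over alternatives that ranged from 0.0085 to 0.73. Apoc1, an exchangeable apolipoprotein that hinders remnant uptake, had 37.2, 51.3 and 32.7 CPM on its scaffold line in N1, N12 and N3. It had 2.42, 7.92 and 2.25 CPM in DEN model rats, a log2 fold change of -3.26 (SE 0.49, adjusted p = 0.0012). Apoh, or beta-2-glycoprotein I, a plasma protein that binds phospholipid, was the most even member in normal liver at 4889, 4530 and 4593 CPM. It was at 741, 1443 and 566 CPM in DEN model rats, a log2 fold change of -2.33 (SE 0.44, adjusted p = 0.0032).

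**Figure D2:**
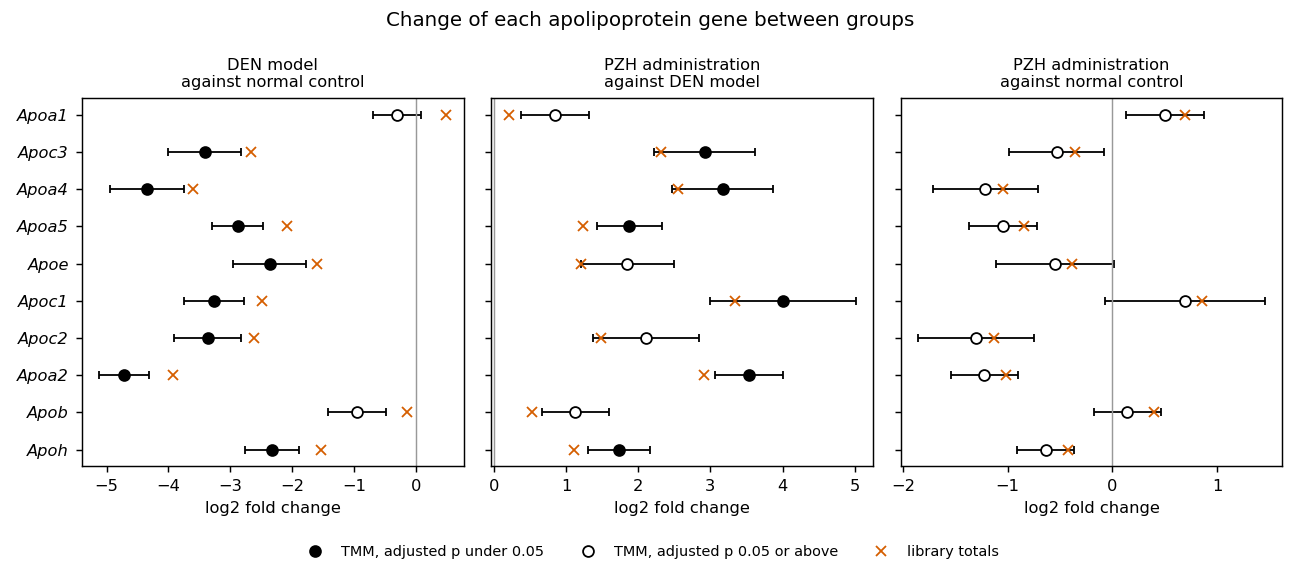
Log2 fold change of each apolipoprotein gene in the 3 comparisons, with bars for the standard error of edgeR's fit (3 rats per group). Filled circles have an adjusted p under 0.05 after TMM scaling, open circles do not, and crosses give the value under library totals. Apoa1 and Apob lie nearest to 0 in the comparison of DEN model with normal control, and no member is called between PZH administration and normal control.

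The second comparison, of PZH administration with DEN model livers, asks how the same genes stand when PZH was given beside DEN. Of the 10 genes, 6 rose: Apoa2, Apoa4, Apoa5, Apoc1, Apoc3 and Apoh. Among all 14272 genes tested, 8.72% were called higher by this test. Only Apoa2 passed the study's thresholds, which 1.08% of all genes did in the higher direction. All 10 fitted log2 fold changes were positive, with a median of 1.99 (1.36 under library totals) where that of all genes was 0.01 (-0.67 under library totals). The groups did not overlap in 7 members, against 40.8% of all genes. This comparison and the first share the DEN model rats, so a rat that was high or low there moves both.

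Apoa2 had 536, 384 and 211 CPM in G27, G28 and G42. All of them were above the highest DEN model rat at 50.5 CPM, and the log2 fold change was 3.54 (SE 0.47, adjusted p = 0.0089). Apoa4 reached 1005, 272 and 316 CPM in the same rats, again without overlap, and its log2 fold change was 3.17 (SE 0.70, adjusted p = 0.021). Apoa5 gave 1250, 599 and 583 CPM, a log2 fold change of 1.88 (SE 0.46, adjusted p = 0.027). Apoc3 gave 1773, 543 and 593 CPM, a log2 fold change of 2.92 (SE 0.70, adjusted p = 0.026). In Apoa4, Apoa5 and Apoc3 rat G27 stood apart above the other 2 rats, which were close to each other. Apoh had 4031, 2604 and 2335 CPM in G27, G28 and G42, all above the highest DEN model rat at 1443 CPM (log2 fold change 1.73, SE 0.44, adjusted p = 0.030). The scaffold line of Apoc1 had 158, 23.2 and 13 CPM. Its log2 fold change was 4.0 with the largest SE of the 10 genes (SE 1.01, adjusted p = 0.031). It was 2.13 without G27, which held most of the level.

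The other 4 members did not pass the test. Apoe had 12440, 3883 and 3211 CPM in G27, G28 and G42, and G42 was just above the highest DEN model rat at 3016 CPM (log2 fold change 1.85, SE 0.64, adjusted p = 0.079). Apoc2 had 498, 156 and 87.1 CPM, with G42 below DEN model rat M17 at 112 CPM (2.1, SE 0.73, adjusted p = 0.079). For Apob the order of the rats was the opposite. G27 was lowest at 8448 CPM, under M17 at 8919 CPM, while G28 and G42 had 15030 and 15150 CPM (1.13, SE 0.47, adjusted p = 0.12). Apoa1 had 4255, 2069 and 1621 CPM, which overlapped the DEN model (0.85, SE 0.47, adjusted p = 0.24). Other settings called 3 of these 4 genes. DESeq2 called Apoe (1.86, adjusted p = 0.0040, over alternatives from 0.0040 to 0.24) and Apob (1.14, adjusted p = 0.0098, over alternatives from 0.0098 to 0.36), and the fit of all 9 rats called Apoc2 (2.07, adjusted p = 0.049, over alternatives from 0.027 to 0.24). The number of members called depended on single rats. It was 2 without G27 (Apoa2 and Apoa4), 4 without G28 or without G42 (Apoa5 and Apoh were lost), 1 without M13 and 1 without M24 (Apoa2 in both), and 9 without M17 (all but Apoa1). At the study's thresholds, leaving out M17 gave 4 members and 4.71% of all genes in either direction. With all rats these were 1 member and 2.43%. The log2 fold changes of the lost calls stayed positive. Apoa5 was at 2.07 without G28, 2.08 without G42, 1.89 without M13 and 1.58 without M24, beside 1.88 with all rats. Apoh was at 1.83 without G28, 1.9 without G42, 1.6 without M13 and 1.48 without M24, beside 1.73. Without G27 the values were 1.41 for Apoa5, 1.45 for Apoh and 2.13 for Apoc3. The share of all genes called in either direction was 19.1% with all rats. It also fell, to 14.9% without G27, 1.87% without M13 and 5.0% without M24. The shares without G28, G42 or M17 are not given here, so those counts of 4 and 9 members stand without that background. Apoa2 was called under all 14 alternatives, with an adjusted p from 2.9e-14 to 0.044.

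The third comparison sets PZH administration beside normal control. None of the 10 genes was called by edgeR's quasi-likelihood test, where 5.21% of 13348 genes were called. DESeq2 called 2 (Apoa2 and Apoa5, both lower), where it called 9.89% of all genes in either direction, and limma on log2 FPKM called 0. At an unadjusted p under 0.05 the count in edgeR's test was 5, against 18.5% of all genes. The fitted log2 fold changes were negative in 7 members and positive in Apoa1 (0.51), Apob (0.14) and the scaffold line of Apoc1 (0.69). Groups did not overlap in Apoa2, Apoa5 and Apoh, each lower in every PZH administration rat, while 24.2% of all genes did not overlap. Apoa2 was nearest to a call (-1.22, SE 0.32, adjusted p = 0.062), then Apoa5 (-1.04, SE 0.33, adjusted p = 0.11). The adjusted p of Apoa4 was 0.24 (-1.21, SE 0.51), and those of Apoc2 (-1.30, SE 0.56) and Apoh (-0.64, SE 0.27) were both 0.25. Rat G27 decided this result. Without it 7 members were called lower (Apoa2 at -1.57, Apoa4 at -2.08, Apoa5 at -1.51, Apoc1 at -1.16, Apoc2 at -2.33, Apoc3 at -1.31 and Apoh at -0.92), against 9.73% of all genes in either direction. Leaving out any one of the other 5 rats gave 0 members called.

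**Figure D3:**
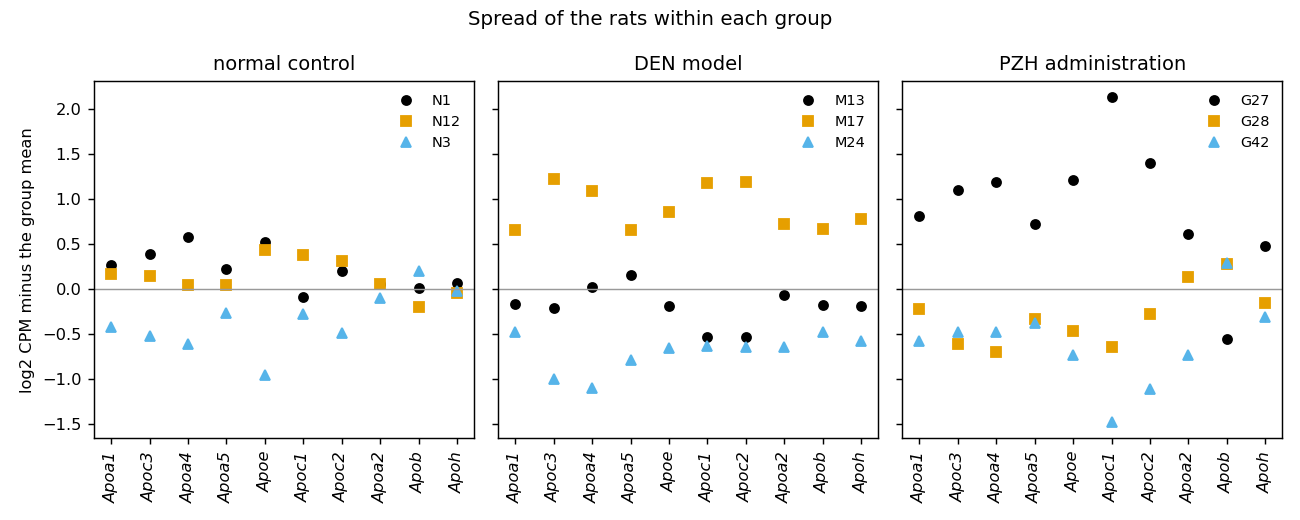
Deviation of each rat from the mean of its group, as log2 CPM minus the mean log2 CPM of the 3 rats, for the 10 apolipoprotein genes in each group. Rat G27 lies highest in 9 genes of the PZH administration group and lowest in Apob, rat M17 is highest in all 10 genes of the DEN model group, and rat N3 is lowest in most genes of the normal control group and highest in Apob.

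Within each group 1 rat stood apart in most members. G27 was above its group mean by 2.13 on the log2 scale for Apoc1, 1.40 for Apoc2, 1.21 for Apoe and 0.47 for Apoh, but it was below the mean for Apob (-0.56). N3 was below its group mean by most for Apoe (-0.96) and Apoa4 (-0.61) and above it for Apob (0.20). These rats also differed with transcript length. The transcript lengths implied by the authors' counts and FPKM ran from 207 bases for Apoc1 and 440 for Apoa2 to 1967 for Apoa5, and Apob stood far apart at 16624 bases. Over 588 genes shorter than 1 kb the median deviation of G27 from its group mean was 0.22 on the log2 scale, and over 2356 genes longer than 4 kb it was -0.09. In N3 the same medians were -0.11 and 0.02. The part of transcript length in the deviations of the members was not tested. M17 was above its group mean in every member, Apob included, from 0.65 for Apoa5 to 1.22 for Apoc3. It also held the highest summed level of 11 hepatocyte genes in its group, 81870 CPM against 49070 in M13 and 34890 in M24.

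**Figure D4:**
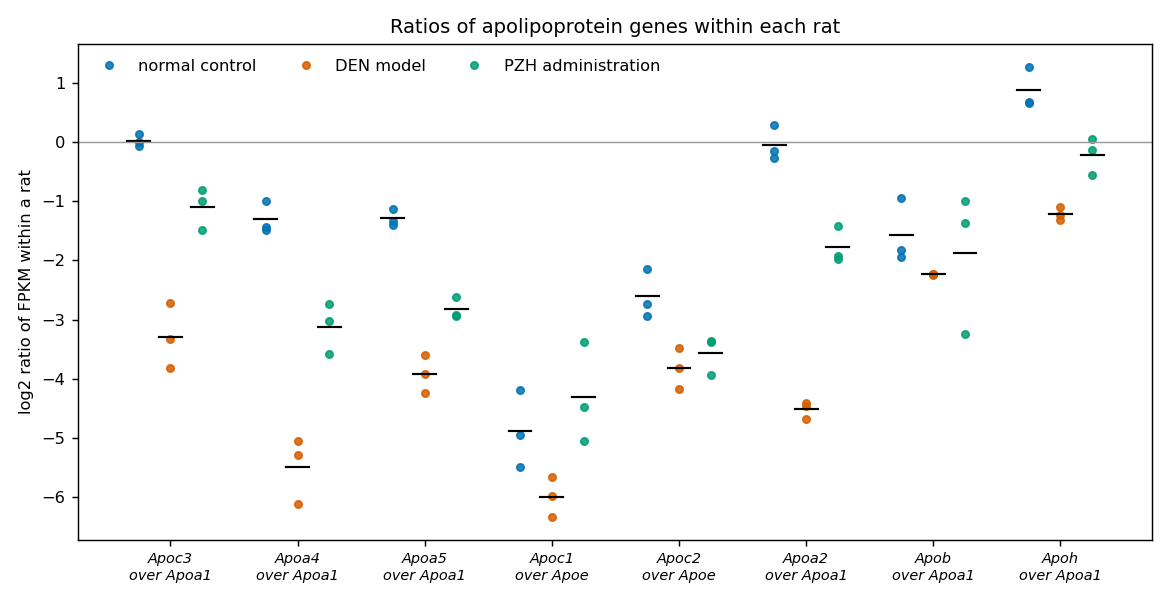
Log2 ratio of the FPKM of 2 apolipoprotein genes within each rat, for pairs that are neighbours or share a particle with Apoa1. Points are rats, coloured by group (3 rats each), black lines are group means and the grey line marks equal FPKM. Apoa2 over Apoa1 lies near 0 in normal control rats and below -4 in all 3 DEN model rats, with the PZH administration rats between them.

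Ratios of 2 members within a rat do not depend on the scaling of the libraries. In normal liver Apoa2 and Apoa1 were nearly equal in FPKM (ratio 0.833, 0.898 and 1.22 in N1, N12 and N3). DEN model rats had Apoa2 at 0.0471, 0.0456 and 0.0389 of Apoa1 in M13, M17 and M24, and PZH administration rats at 0.255, 0.375 and 0.263 in G27, G28 and G42. The 3 groups did not overlap, with mean log2 ratios of -0.05 ± 0.29, -4.52 ± 0.15 and -1.77 ± 0.31. The same order held for the cluster neighbours of Apoa1. Apoc3 over Apoa1 had a mean log2 ratio of 0.02 in normal control, -3.29 in DEN model and -1.10 in PZH administration rats, Apoa4 over Apoa1 had -1.30, -5.48 and -3.12, and Apoa5 over Apoa1 had -1.29, -3.92 and -2.82. None of these groups overlapped (exact permutation p = 0.1 for each, 0.12 after adjustment over 24 tests). Apoh over Apoa1 had 0.87, -1.22 and -0.21 in the same groups, also without overlap. For the scaffold line of Apoc1 over Apoe the mean log2 ratio was -4.88 in normal control and -5.99 in DEN model rats without overlap, and the PZH administration rats at -4.30 were above the DEN model without overlap (exact p = 0.1) and overlapped normal control (exact p = 0.5). Apoc2 over Apoe was -2.61 in normal control and -3.83 in DEN model rats, and the PZH administration rats at -3.56 overlapped the DEN model (exact p = 0.4). Apob over Apoa1 was almost the same in the 3 DEN model rats, 0.210, 0.213 and 0.213, and spread widely in the PZH administration rats, 0.106 in G27, 0.389 in G28 and 0.50 in G42.

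As a share of the summed FPKM of the 10 genes, Apoa1 was 10.7% ± 0.0797 in normal control, 38.3% ± 2.82 in DEN model and 21.2% ± 1.04 in PZH administration rats, with no overlap between any groups. Each difference had the smallest exact permutation p of 0.1 (0.16 after adjustment over 30 tests). Apoa1 held 10.6% to 10.7% of the sum in all 3 normal control rats, although their summed FPKM ran from 10500 in N3 to 18710 in N1. Apoa2 went the other way, from 10.5% to 1.67% and 6.35%. The share of Apob was 3.77% in normal control and 8.11% in DEN model rats without overlap, and in PZH administration rats it was 2.17% in G27, 8.70% in G28 and 10.3% in G42.

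The reads of apolipoprotein C1 were divided between lines of the table. Beside the scaffold line, NEWGENE_2134 (chr1:80606638-80609921) is described in the file as apolipoprotein C1 and lies between Apoc4 and Apoe, where RefSeq places Apoc1 on the assembly GRCr8. It was looked at after the values had been seen. It had 690, 1380 and 745 CPM in N1, N12 and N3, 63.9, 195 and 57.5 CPM in M13, M17 and M24, and 1047, 425 and 246 CPM in G27, G28 and G42. The scaffold line held 3.58% to 5.17% of the reads of both lines in 8 rats and 13.1% in G27. With both lines summed, apolipoprotein C1 was called lower in DEN model than in normal control (-3.14, SE 0.55, adjusted p = 0.0025) and higher in PZH administration than in DEN model (2.57, SE 0.69, adjusted p = 0.037). Against normal control the summed value had the opposite sign to the scaffold line alone, -0.61 (SE 0.52, adjusted p = 0.60) in place of 0.69. The adjusted p of Apoc1 over its 15 alternatives ran from 6.0e-11 to 0.011, from 0.0037 to 0.11 and from 0.045 to 0.96 in the 3 comparisons. Near-identical transcript models may share reads, so the split between the lines is uncertain.

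Promoters are shown for Apoa4 and Apoa5, cluster neighbours of Apoa1 that fell where Apoa1 did not pass the test, and for Apoc2 of the other cluster. The sequences are from RefSeq on GRCr8, cover the 250 bases before an annotated transcript start, and are given 5′ to 3′ on the strand of the gene, with a matched motif in capitals. The RefSeq promoter table used here matched 6 of the 10 members (10 entries), and those of Apoa1, Apoa2, Apob and Apoc3 were not analysed here.
Apoa4 (chr8:55435529-55435778, + strand): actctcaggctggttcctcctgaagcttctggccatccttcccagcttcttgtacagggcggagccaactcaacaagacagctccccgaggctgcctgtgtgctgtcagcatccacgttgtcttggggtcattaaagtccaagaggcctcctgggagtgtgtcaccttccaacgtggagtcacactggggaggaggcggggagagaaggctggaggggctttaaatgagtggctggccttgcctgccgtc
Apoa5 (chr8:55457621-55457870, + strand): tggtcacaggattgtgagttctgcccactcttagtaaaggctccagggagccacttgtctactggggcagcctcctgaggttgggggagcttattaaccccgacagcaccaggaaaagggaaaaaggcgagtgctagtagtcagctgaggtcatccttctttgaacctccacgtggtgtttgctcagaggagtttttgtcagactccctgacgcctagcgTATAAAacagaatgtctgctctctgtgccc
Apoc2 (chr1:88462366-88462615, - strand): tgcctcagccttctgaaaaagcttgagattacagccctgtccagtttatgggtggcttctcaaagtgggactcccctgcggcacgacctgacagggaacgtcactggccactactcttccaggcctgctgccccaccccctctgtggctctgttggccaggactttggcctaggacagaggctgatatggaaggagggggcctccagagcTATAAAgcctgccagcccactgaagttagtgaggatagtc
The letters searched on both strands were the TATA box TATAAA and the core CAAAGNNCA of sites for the nuclear receptor HNF4, which do not overlap each other. TATAAA was found 30 bases before the start of Apoa5 and 40 bases before that of Apoc2 (the capitals), and a second Apoa5 entry with a later start holds the same letters 184 bases upstream. Of 33469 promoters of the same length 12.9% hold TATAAA and 5.22% hold the HNF4 core. The core was not found in the 10 entries, which says only that these letters are not in these windows.

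Other genes of the pathway were taken from lists by role. For their counts the background over all genes was 25.3% called higher and 20.5% lower in the DEN model. In PZH administration against DEN model it was 8.72% higher and 10.3% lower. Of 10 tested proteins that ride on lipoproteins, 8 fell in the DEN model and 1 rose, and 5 of 10 rose and 1 fell in PZH administration against DEN model. Apom, an HDL protein that carries sphingosine-1-phosphate, had a log2 fold change of -2.92 and then 2.57, Apon -3.81 and then 2.99, and the HDL-bound enzyme Pon1 -2.89 and then 2.40, all called by edgeR's quasi-likelihood test. Lcat, the enzyme that Apoa1 activates, fell by 2.96 and then rose by 1.90 on the log2 scale. It was lower in PZH administration than in normal control rats (-1.10, adjusted p = 0.019 in edgeR's quasi-likelihood test). Pltp, which transfers phospholipid between particles, went the other way in the first 2 comparisons (1.05 and then -1.17, both called). Apoc4, which lies between Apoc2 and Apoe, fell by 2.39 on the log2 scale, and its value of 1.76 in the second comparison missed the threshold (adjusted p = 0.065).

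Of 16 tested genes of lipoprotein assembly and secretion, 10 fell in the DEN model and 0 rose, a split that became 3 lower and 3 higher under library totals. Mttp, the transfer protein that loads lipid onto Apob, was among those that did not pass (-0.43, adjusted p = 0.22 in edgeR's quasi-likelihood test, and 0.41 under library totals, adjusted p = 0.12). Dgat2, which makes triglyceride, fell by 2.30 on the log2 scale and was one of 3 genes that rose in PZH administration against DEN model (1.77, adjusted p = 0.012). Of the 3 genes that edit Apob mRNA, by which rat liver makes a shortened form of the protein, the editing enzyme Apobec1 rose in the DEN model (1.42, adjusted p = 0.0022). Its partner A1cf fell (-1.25, adjusted p = 0.0053). In the second comparison Apobec1 fell (-1.36) and A1cf rose (1.21), both called. Under library totals both calls of A1cf were lost (-0.42 with adjusted p = 0.11, then 0.59 with adjusted p = 0.080), and the list had 2 higher and 0 lower, then 0 higher and 1 lower. Among 21 transcription factors known to act on apolipoprotein genes, 18 fell in the DEN model and 0 rose (12 lower and 2 higher under library totals), and 11 rose and 0 fell with PZH (2 higher and 1 lower under library totals). Hnf4a, a nuclear receptor central to hepatocyte genes, had 864 ± 95.3 CPM in normal control, 274 ± 81.3 in DEN model and 583 ± 31.9 in PZH administration rats, with log2 fold changes of -1.64 (adjusted p = 0.0024) and 1.11 (adjusted p = 0.026). Creb3l3, a factor of triglyceride metabolism, gave -2.02 and 1.27, both called. Under library totals the second call was lost for Hnf4a (0.47, adjusted p = 0.11) and for Creb3l3 (0.63, adjusted p = 0.059).

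Marker lists of liver cell types were also compared between the groups. The summed level of 11 hepatocyte genes was 169900 to 188700 CPM in normal control, 34890 to 81870 in DEN model and 135300 to 181400 in PZH administration rats, and 6 of the 11 were called lower in the DEN model. In PZH administration against DEN model 4 of the 11 were called higher. Alb and Tf, with means of 81070 and 37230 CPM in PZH administration rats, were not among these (adjusted p = 0.0503 and 0.17 in edgeR's quasi-likelihood test). The 5 bile duct genes summed to 12.1 to 19.9, 194 to 632 and 78.2 to 94.2 CPM in the 3 groups, and the 8 stellate cell genes to 195 to 323, 1050 to 3210 and 599 to 725 CPM. For 6 macrophage genes the sums were 476 to 825, 407 to 477 and 246 to 510 CPM, for 5 lymphocyte genes 3.78 to 5.80, 7.33 to 38.8 and 2.78 to 7.66 CPM, and for 4 endothelial genes 212 to 255, 185 to 334 and 195 to 282 CPM. Called higher in the DEN model were 5 of 5 bile duct, 7 of 8 stellate cell, 3 of 4 lymphocyte, 2 of 4 endothelial and 3 of 5 gut genes that could be tested, and called lower were 3 of 6 macrophage genes (3 higher and 1 lower under library totals) and 1 of 4 endothelial genes. Of all genes tested, 25.3% were called higher and 20.5% lower in that comparison. Gut epithelium also makes Apoa1, Apoa4 and Apob. Its 8 genes summed to 192 to 214 CPM in normal control rats, nearly all of it Cdh17, with Cdx1, Gucy2c, Lgals4 and Slc15a1 at 0 there. In the DEN model they summed to 65.0 to 553 CPM, and in PZH administration to 31.8 to 136 CPM with Cdx1 and Cdx2 at 0. Rat M24, with the highest gut sum of the DEN model, was the lowest of its group in every member and in the hepatocyte sum (34890 CPM). The part of any cell type in the changes of the members was not tested.

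Set against the hepatocyte genes of the same rat, as the member's log2 CPM minus the mean log2 CPM of the 11 genes, the members differed in direction. This ratio was added after the values had been seen. Between DEN model and normal control it differed by -2.66 for Apoa2, -2.37 for Apoa4 and -1.5 for Apoc3 on the log2 scale. It differed by -1.42 for Apoc2, -1.31 for the scaffold line of Apoc1 and -0.81 for Apoa5. The difference was -0.28 for Apoh and -0.20 for Apoe, whose groups overlapped, and the ratio was higher in the DEN model for Apoa1 (1.81) and Apob (1.15). Between PZH administration and DEN model the same ratio was higher by 1.83 for Apoa2, 1.45 for Apoa4 and 1.27 for Apoc3. For the scaffold line of Apoc1 it was higher by 1.68. It was lower for Apoa1 (-0.92) and differed by -0.01 for Apoe. The groups overlapped in Apoe, Apoa5, Apob, Apoc2 and Apoh. The exact permutation p was 0.1 for each value named here except those of Apoe, at 1.0 (0.19 or more after adjustment over 30 tests).

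Genes with a profile most like a member over the 9 rats were found by the root mean square difference of log2 deviations from the mean, over 7714 genes. Sult1c3, a sulfotransferase, was nearest to Apoa2 (0.288), with means of 199, 6.24 and 114 CPM in the 3 groups, before Serpina3c (0.364) and Hao2 (0.381). Nearest to Apob were Acvr1c (0.155), Car14 (0.177) and the selenium carrier Selenop (0.205). The mitochondrial electron carrier Etfb was nearest to Apoe (0.219), with group means of 162, 36.7 and 94.6 CPM, before Hsd17b10 (0.267) and Serpina11 (0.273). The nearest to the scaffold line of Apoc1 was NEWGENE_2134 (0.536), the other line of apolipoprotein C1, before Mt1 (0.566) and Amacr (0.608). No member was as near to Apob as these genes, the closest being Apoa1 at 0.678.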

How the data were processed

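The members and the gene lists were chosen with earlier results of these data known. The authors deposited 1 table of genes, with raw counts of reads (whole numbers) for every gene in each rat. It also holds FPKM, which the authors derived from the same reads by length and depth. Their processing notes name fastp, HISAT2 2.1.0, StringTie 1.3.3b and edgeR 3.30.3, and the annotation and build are not given in the sources used here. Columns with group means and with the authors' own comparisons of groups (fold changes on the log2 scale and their significance) were not used.

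Groups were taken from the titles, with 3 separate rats per group. Genes passing filterByExpr were TMM-scaled and tested in R 4.3.3 with edgeR 4.0.16 (glmQLFit and glmQLFTest), with no covariates and only the 6 rats compared in each fit, and p-values were adjusted by Benjamini-Hochberg over all genes tested. Shares and ratios within a rat were compared by exact two-sided permutation tests. The code was tested on simulated counts. Named by rule were all 10 members, their pairs with a neighbour or with Apoa1, and the 3 genes nearest in profile to Apoa2, Apob, Apoc1 and Apoe; from a list of related genes at most the 3 highest and 3 lowest called in the DEN model were named, with Mttp, Apobec1, Hnf4a, Lcat, Lpl and Creb3l3 in any case. A further gene of the rule is not reported here. Pon1, Apoc4 and Abca1 were added after their values were seen. Alternatives were DESeq2 1.42.0, library totals or upper-quartile scaling, no filter, at least 10 counts in every rat, all 9 rats in one fit, limma 3.58.1 on log2(FPKM + 1) or log2(FPKM + 0.1), and leaving out each rat. Ratios to the hepatocyte genes and the summed Apoc1 lines were added after seeing the data. Depth limits precision, and the floor of 3 counts covers counting error only. Protein sequences were not analysed here.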

Additional observations from a re-analysis of the deposited data

How the results depend on the processing

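No paired analysis was possible because the groups share no rat numbers. Of the counts of members called, those between DEN model and normal control stayed within 1.5 times under every alternative, at 7 to 9 for an adjusted p under 0.05 and 5 to 8 for the study thresholds, rats left out included. In the main fit 45.8% and 12.3% of all genes were called in either direction by these rules. The shares of all genes under the alternatives are not given here for this comparison. Between PZH administration and DEN model the count at an adjusted p under 0.05 was 1 to 9 when a rat was left out. At the study thresholds it was 3 with DESeq2, 2 without a filter, 3 with all 9 rats in one fit and 1 to 4 with a rat left out. The shares of all genes in either direction were 4.54%, 2.13%, 2.77% and, without M17 (4 members), 4.71%. Between PZH administration and normal control the count at an adjusted p under 0.05 was 2 with DESeq2 (9.89% of all genes), 1 without a filter (Apoa2, 4.06%) and 0 to 7 with a rat left out (7 without G27, 9.73%). At the study thresholds it was 0 to 2 with a rat left out (2 without G27, 2.97%). The difference in the members' share of all counts between PZH administration and normal control lay from -0.372 to 0.126 percentage points with a rat left out (0.0453 without G42, 0.126 without N1). Directions reversed for Apoa1 between DEN model and normal control with library totals (0.49), with limma at either pseudocount (0.50 for both) and relative to the hepatocyte genes (1.81), where Apob also reversed (1.15). Relative to these genes Apoa1 (-0.92), Apob (-0.55) and Apoe (-0.011) reversed between PZH administration and DEN model. Against normal control, Apoa1 reversed without G27 (-0.024, range -0.024 to 0.76 with a rat left out), as did Apoc1 (-1.16, range -1.16 to 1.18), and Apoc1 reversed with both lines summed (-0.61). Differences in the share of the summed FPKM, in percentage points, reversed against DEN model without G27 for Apob (1.41, range -2.68 to 1.41) and Apoe (-2.06, range -2.06 to 3.31). Against normal control they reversed without G27 for Apoc1 (-0.107, range -0.107 to 1.17) and Apoh (1.02), without N3 for Apoh (1.73, range -2.82 to 1.73) and without G28 for Apoc3 (0.157, range -1.65 to 0.157). Log2 ratios of Apob over Apoa1 reversed without G42 against DEN model (-0.062, range -0.062 to 1.05), and against normal control without G27 (0.39) and without N3 (0.018, range -0.73 to 0.39). The causes were not tested. Each member had at least 54 counts in every rat, with the fewest on the scaffold line of Apoc1 (57 in M13 and 54 in M24).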

Other observations

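Receptors and enzymes that act on the particles after secretion divided in direction. Of 13 tested lipoprotein receptors and their regulators, 5 were called higher and 4 lower in the DEN model (7 and 2 under library totals), and 2 higher and 3 lower in PZH administration against DEN model (0 and 7 under library totals). Of all genes tested, 25.3% were called higher and 20.5% lower in the first of these comparisons, and 8.72% and 10.3% in the second. Vldlr, a receptor for triglyceride-rich particles, had 0.990 ± 0.539 CPM in normal control, 30.1 ± 8.55 in DEN model and 9.48 ± 4.07 in PZH administration rats (SD, n = 3). Its log2 fold changes, called by edgeR's quasi-likelihood test in all 3 comparisons, were 4.92, -1.66 and, for PZH administration against normal control, 3.24. Lrp8, which also binds Apoe, had means of 0.695, 10.6 and 2.88 CPM and was called in the first 2 comparisons.

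Of 7 tested plasma lipases and their regulators, 2 rose and 4 fell in the DEN model, and 4 rose and 1 fell in PZH administration against DEN model. Lpl, the lipase for which Apoc2 is the cofactor, had 16.2 ± 4.49 CPM in normal control, 198 ± 48.3 in DEN model and 119 ± 49.5 in PZH administration rats, and it rose by 3.62 on the log2 scale with DEN (adjusted p = 0.00011 in edgeR's quasi-likelihood test). The second comparison did not pass (-0.72, adjusted p = 0.19), but under library totals Lpl was called lower (-1.39, adjusted p = 0.022). With TMM scaling, PZH administration rats were higher than normal control in edgeR's test (2.88, adjusted p = 0.0050). The hepatic lipase Lipc moved in the other direction, from 534 ± 21.4 to 68.6 ± 28.4 and 238 ± 52.5 CPM, and was lower than normal control in PZH administration rats as well (-1.16, adjusted p = 0.019). Angptl4, an inhibitor of Lpl, fell by 2.89 on the log2 scale in the DEN model and rose by 1.44 in the second comparison. It was lower in PZH administration than in normal control rats as well (-1.47, adjusted p = 0.023 in edgeR's quasi-likelihood test). Among 7 genes of cholesterol export to HDL, 2 rose and 3 fell in the DEN model (3 and 1 under library totals), then 1 rose and 2 fell (1 and 4 under library totals). Abcg1 rose in the DEN model (1.36, adjusted p = 0.0021) and fell in PZH administration against DEN model (-1.25, adjusted p = 0.013), while Abca1, which loads lipid onto Apoa1, did not pass in either (0.13 and -0.12). Under library totals Abca1 was called in both (0.98 with adjusted p = 0.016, then -0.75 with adjusted p = 0.048).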
